A study of Mus musculus with 2 samples.

Results

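The genes described here form the transcriptional end of the Hippo pathway: the DNA-binding factors Tead1, Tead2, Tead3 and Tead4, their coactivators Yap1 (YAP) and Wwtr1 (TAZ), and the vestigial-like cofactors Vgll2, Vgll3 and Vgll4. They were followed through the deposited ATAC-seq peaks. A peak was counted when its centre lay in the mm10 span of a gene or within 100 kb of either end, which chose 30 of 22485 peaks by position alone. Of the 9 genes, 8 had such a peak, as had 79.4% of all protein-coding genes.

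Each population was represented by 1 library of C57BL/6 mouse adipose progenitors, without replicates. CD137+ cells and CD140+/PDGFRa+ cells (PDGFRα below) had been isolated from SAT or VAT by MACS and carried through adipogenic differentiation before 1 µM of dexamethasone, a synthetic glucocorticoid, was added. Both groups received the drug and no untreated library was analysed here, so its effect cannot be read from these values. The labels give neither the depot of each population nor the age of the mice, and their extraction text mentions the zona pellucida, a structure of eggs and early embryos, which does not match fat. Each list holds only peaks that the authors call unique (14483 for CD137 and 8002 for PDGFRα), with positions and a class but no height, score or read number. Depth is therefore unknown, the sorted cell types could not be checked against markers, and absence from both lists does not separate a site open in all the cells from a site that is closed.

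In the Hippo pathway a cascade of kinases phosphorylates YAP and TAZ and keeps them out of the nucleus. When the cascade is off, YAP and TAZ enter the nucleus and bind TEAD factors, which carry the DNA-binding TEA domain but activate transcription poorly on their own. VGLL proteins also bind TEADs, and VGLL4 competes with YAP for them. In fat, TAZ is known as a coregulator that restrains PPARγ, and VGLL3 as an inhibitor of adipocyte differentiation.

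Annotated starts were compared with the peaks for 7 of the 9 genes, all but Tead1 and Tead4, and among these 7 only the start of Vgll2 lay in a unique peak. Its CD137 peak, at 52022046 to 52023334 of chromosome 10, covered the whole promoter window of RefSeq (build GRCm38.p6, which is mm10), from 250 bases before to 50 bases after the annotated start at 52022502. The 250 bases upstream of the start, chr10:52022252-52022501 on the plus strand, are shown because, of the 7 genes compared, only this one had its promoter inside a listed peak. Capitals mark CpG dinucleotides, the sites of DNA methylation, which the series title connects with TEAD1.
Vgll2: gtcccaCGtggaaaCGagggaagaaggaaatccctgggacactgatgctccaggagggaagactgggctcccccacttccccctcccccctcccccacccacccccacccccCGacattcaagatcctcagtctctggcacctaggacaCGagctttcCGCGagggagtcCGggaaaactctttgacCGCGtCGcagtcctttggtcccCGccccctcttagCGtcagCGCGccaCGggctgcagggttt
This stretch held 15 CpG, of which 12 lay in the 125 bases next to the start and 3 in the 125 bases farther away. Its GC content was 64%.

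Peaks of the CD137 list made up 63.3% of the peaks around the genes (19 CD137 and 11 PDGFRα peaks, exact binomial 95% interval 43.9 to 80.1%). Over the whole lists the CD137 share was 64.4%, which lies inside that interval, so the group as a whole followed the lengths of the lists. The TEAD genes had 8 CD137 and 7 PDGFRα peaks (53.3%, 26.6 to 78.7%). The coactivators had 4 and 2 (66.7%, 22.3 to 95.7%) and the VGLL genes 7 and 2 (77.8%, 40 to 97.2%). The 3 intervals overlap widely, and no difference between the roles could be told apart from counting error. All intervals here cover counting error only, and with 1 library per group no p-value is given.

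A CD137 peak lay within 100 kb of 8 of the 9 genes, where 66.8% of 21887 protein-coding genes had one. A PDGFRα peak lay within 100 kb of 6 genes, against a background of 56%. The 4 TEAD genes, Wwtr1 and Vgll4 had peaks of both lists, as had 43.4% of all genes. Vgll2 and Vgll3 had CD137 peaks only (background 23.4%), none had PDGFRα peaks only (12.6%), and Yap1 had no peak of either list (20.6%). For the 6 members with spans of 50 to 250 kb, the shares can be read against the 4223 genes of that length, where 82.1% had a CD137 peak and 67.5% a PDGFRα peak. There the counts were 5 and 4 of the 6. The windows around the genes held 12 peaks per Mb (exact Poisson 95% interval 8.1 to 17.1) against 9.71 around all protein-coding genes.

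**Figure D1:**
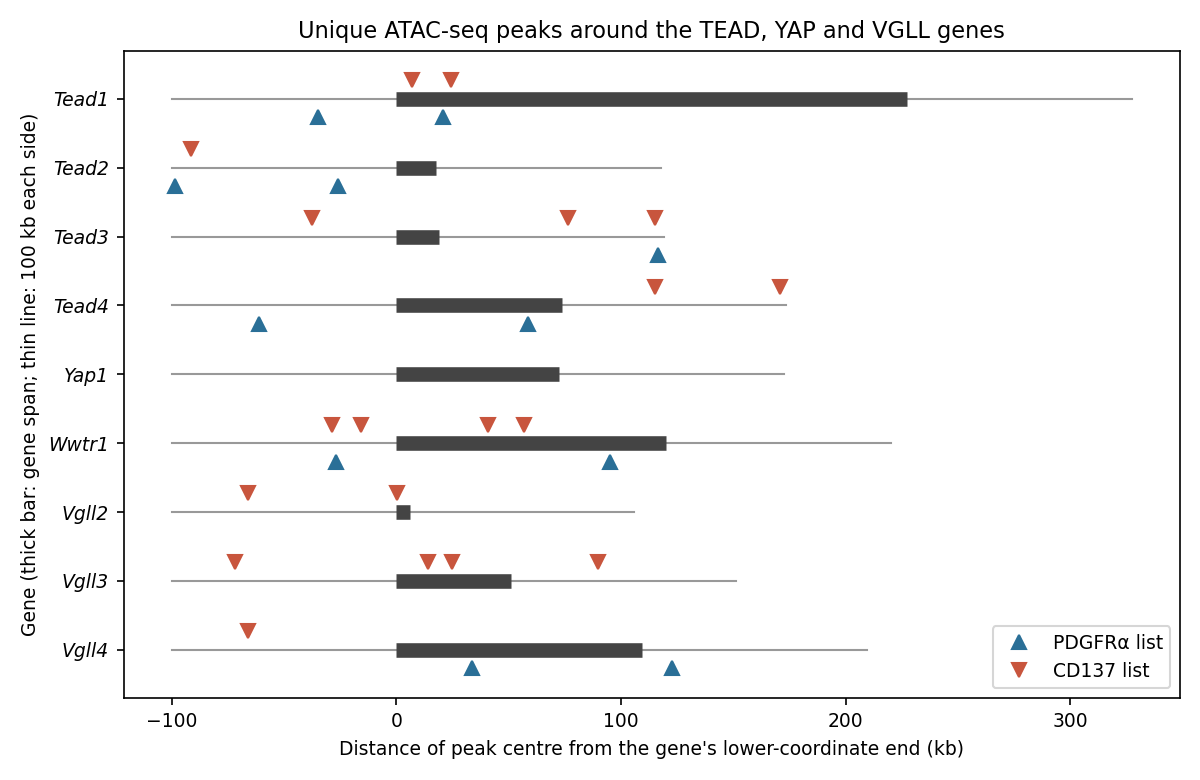
Positions of the 30 unique peaks around the 9 genes, each row aligned at the gene's lower-coordinate end (x axis in kb; thick bar, gene span; thin line, 100 kb on each side). Triangles above a row are CD137 peaks and triangles below it PDGFRα peaks; Yap1 has none, and Vgll2 and Vgll3 have triangles above only.

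Inside the genes themselves lay 11 of the peaks, 7 of the CD137 and 4 of the PDGFRα list (CD137 share 63.6%, 30.8 to 89.1%). Tead1 and Wwtr1 had peaks of both lists inside their span (background over all genes 6.41%), Vgll2 and Vgll3 of CD137 only (10.9%), and Tead4 and Vgll4 of PDGFRα only (6.81%). These backgrounds cover genes of every length, whereas Tead1, Wwtr1, Vgll4 and Tead4 span 227, 120, 109 and 73.7 kb. No such shares are given for genes of like length. Tead2, Tead3 and Yap1 had none, as had 75.9% of all genes. Every deposited peak under the Ensembl IDs of the 6 genes with an internal peak lay inside the RefSeq span of the same gene, 11 of 11 peaks. Because the IDs were taken from the internal peaks themselves, this shows only that no peak elsewhere carried them. In all, 6 of the 9 genes held a peak, where 24.1% of all genes did. Genes of 50 to 250 kb more often hold a peak, 59.6% of them, and 5 of the 6 members of that length did.

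Tead1, the factor named in the title of the series, spans 227 kb of chromosome 7 (112679356 to 112906784). Its 3 internal peaks all had the class intron, carried ENSMUSG00000055320 and lay in the first 25 kb from the lower-coordinate end, leaving the remainder of the gene without a unique peak. A CD137 peak of 1919 bp had its centre 6.98 kb from that end and was wider than 94.3% of its list. The PDGFRα peak, 1455 bp wide (percentile 75), was centred 20.9 kb from the end. A narrow CD137 peak of 841 bp (percentile 5.41) followed at 24.3 kb. The narrow CD137 peak and the PDGFRα peak were 2296 bp apart, a closer approach of opposite lists than is usual, since the median PDGFRα peak was 43.4 kb from the nearest CD137 peak and 11.1% lay within 5000 bp of one. The fourth Tead1 peak, of the PDGFRα list, was intergenic, 1076 bp wide (percentile 29.5) and 34.7 kb below the gene. Tead1 was the nearest protein-coding gene of all 4.

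Tead4, which is known for its part in the trophectoderm of the early embryo, spans 73.7 kb of chromosome 6 (128227143 to 128300813). Its internal peak was of the PDGFRα list, at 128285139 to 128286772 in an intron of ENSMUSG00000030353, 1633 bp wide and at percentile 86.1 of its list. The other peaks in its window had other genes as their nearest protein-coding gene. A CD137 peak of 1535 bp, classed exon, was in Tulp3, 41.4 kb away, and a CD137 peak of 1064 bp, classed up5k (up to 5 kb upstream of a gene), was in Nrip2, 97.1 kb away. A PDGFRα peak of 1517 bp, up5k under ENSMUSG00000108220, lay 61.1 kb below Tead4. Its centre was in no RefSeq gene, and Tspan9, 22.5 kb away, was its nearest protein-coding gene.

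Tead2 (chromosome 7, 45215792 to 45233468) and Tead3 (chromosome 17, 28331671 to 28350805) are short genes with 14 and 5 other protein-coding genes in their windows. No peak in either window had Tead2 or Tead3 as its nearest protein-coding gene. The PDGFRα peaks around Tead2 were one of 967 bp in an exon of ENSMUSG00000038292, 25.8 kb away at Kash5, and one of 1207 bp with the class up5k, 98.6 kb away. For Tead3, a CD137 peak of 1023 bp lay 37.7 kb away in an intron of Ppard, a nuclear receptor gene of fatty acid metabolism.

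The other 3 peaks in the Tead3 window lay in Fkbp5, a chaperone gene that glucocorticoids induce, 57.2 to 97.3 kb from Tead3. A CD137 peak of 1646 bp (intron) stood by itself. A CD137 peak of 1183 bp (exon, 28446123 to 28447306) and a PDGFRα peak of 1403 bp (intron, 28447402 to 28448805) were neighbours 96 bp apart. Only 1.42% of PDGFRα peaks had a CD137 peak within 500 bp. These peaks count for Tead3 through the window alone, and no value here ties them to it.

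Yap1 (chromosome 9, 7931999 to 8004638), the coactivator that Hippo kinases restrain, had no unique peak in its window. The nearest was a PDGFRα peak just outside it, 103 kb away at 7827691 to 7830814. It was 3123 bp wide, was classed intron of ENSMUSG00000057367 and lay nearest to Birc2, an apoptosis inhibitor gene. As far or farther from a PDGFRα peak were 43.3% of all protein-coding genes. The nearest CD137 peak was 175 kb away at 8179284 to 8180372, and 19.6% of all protein-coding genes were as far or farther from one. At Tead4, peaks just outside the window lay 110 kb (PDGFRα, 1100 bp, down5k, within 5 kb downstream of a gene) and 118 kb (CD137, 1089 bp, intron) away. The peaks just inside a window were those of Tead2 at 98.6 kb, Tead3 at 97.3 kb and Tead4 at 97.1 kb.

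Wwtr1, which encodes TAZ, had the most peaks of the group, 4 of CD137 and 2 of PDGFRα, in a window around 57455644 to 57575910 of chromosome 3. The 3 peaks inside the gene all had the class intron, under ENSMUSG00000027803, and the PDGFRα peak did not lie between the CD137 peaks. The PDGFRα peak (57549949 to 57551953) was the one nearest to the start of the gene, 24.9 kb downstream of it. The CD137 peaks at 57511558 to 57513218 and 57495871 to 57497270 lay 63.5 and 79.3 kb downstream. The PDGFRα peak was 2004 bp wide (percentile 94.5), the CD137 peaks 1660 bp (88.7) and 1399 bp (71.9). Beyond the far end of Wwtr1, introns of Tm4sf4, a tetraspanin-like membrane protein gene, held 3 narrower peaks. They were CD137 peaks of 875 bp and 1115 bp, 28.6 and 15.6 kb from Wwtr1, and a PDGFRα peak of 1224 bp at 26.7 kb that was 859 bp from the first of them.

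Vgll2, a cofactor known from skeletal muscle, and Vgll3 were the genes with CD137 peaks only. For Vgll2 (chromosome 10, 52022502 to 52028471), the peak over the start was 1288 bp wide (percentile 58.5) and had the class up5k under ENSMUSG00000049641, although its centre was 0.188 kb inside the gene. An intergenic CD137 peak of 800 bp (percentile 3.21) lay 65.8 kb below it. The nearest PDGFRα peak was 617 kb from the gene, and 8.94% of all protein-coding genes were as far or farther from a PDGFRα peak.

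Vgll3 (chromosome 16, 65815189 to 65866368, 51.2 kb) had 4 CD137 peaks and no PDGFRα peak. The widest peak of the whole group, 2898 bp at 65827717 to 65830615 and at percentile 99 of the CD137 list, lay 14 kb downstream of its start. A second internal peak of 1543 bp (65839100 to 65840643, percentile 83.3) followed at 24.7 kb, and both were classed exon under ENSMUSG00000091243. Outside the gene were intergenic CD137 peaks of 1644 bp, 38.6 kb above it and nearer to the gene model Gm52259, and of 1006 bp, 72 kb below it. The nearest PDGFRα peak was 188 kb away, and 28.1% of all protein-coding genes were as far or farther from one. At least 4 CD137 peaks without a PDGFRα peak were found within 100 kb of 566 protein-coding genes, 2.59% of all and 4.12% of those of 50 to 250 kb. That count was set at the value of Vgll3 itself and describes how common its pattern was.

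Vgll4 (chromosome 6, 114860621 to 114970007) differed in that both of its nearest peaks were of the PDGFRα list. One of 1671 bp (percentile 87.8) lay in an intron under ENSMUSG00000030315 at 114893351 to 114895022. The other, intergenic and 770 bp wide (percentile 2.11), was 13.3 kb above the gene. The CD137 peak in its window, 1344 bp wide and of the class down5k, lay 66 kb away inside Atg7, an autophagy gene.

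**Figure D2:**
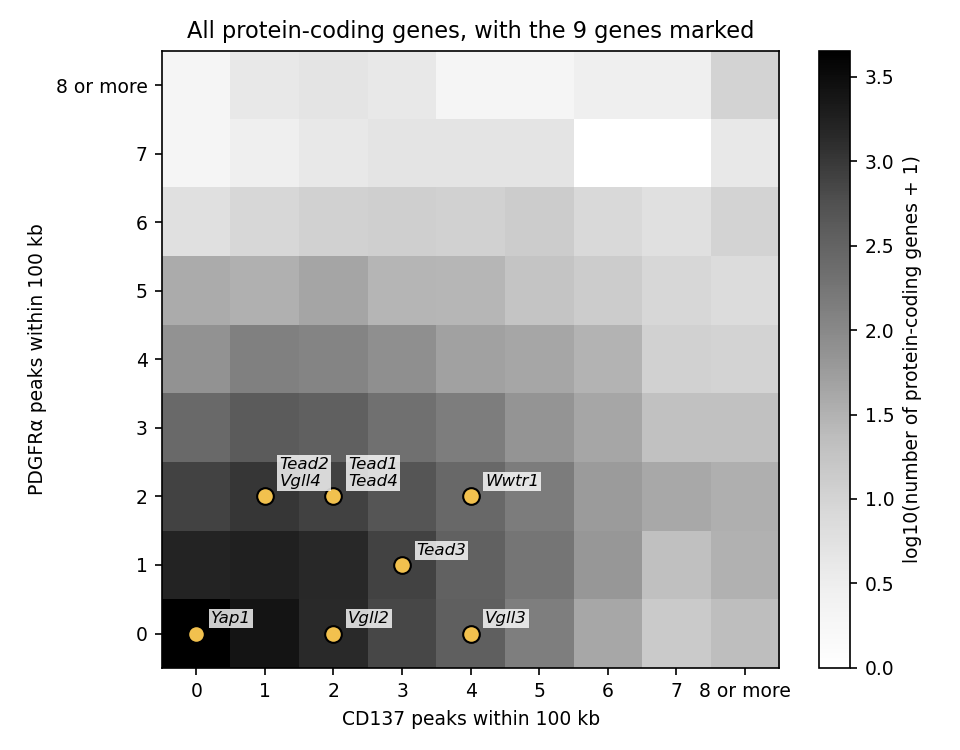
Number of protein-coding genes by their CD137 peaks (x axis) and PDGFRα peaks (y axis) within 100 kb, as grey shade on a log10 scale, with the 9 genes as yellow points. Yap1 sits at 0 and 0, Vgll3 at 4 CD137 and 0 PDGFRα peaks, and Wwtr1 at 4 and 2.

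Most peaks inside the genes were wider than the median of their list. Apart from a narrow one at Tead1, they measured 1288 to 2898 bp, at percentiles 58.5 to 99 of their lists. Of the 11 internal peaks 10 were wider than the median of their own list (90.9%, 58.7 to 99.8%). Among the 10722 peaks inside any protein-coding gene the share was 53.5%. The interval treats the internal peaks as separate, although 3 lie in Tead1 and 3 in Wwtr1. Of the 19 external peaks 7 were wider than the list median (36.8%, 16.3 to 61.6%), against 48.3% of peaks outside but within 100 kb of genes. The internal median was 1543 bp for CD137 (n = 7) and 1652 bp for PDGFRα (n = 4), where the whole lists had 1221 and 1237 bp. Width is not a height or a score, and the way it was set by the authors' peak caller is unknown.

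**Figure D3:**
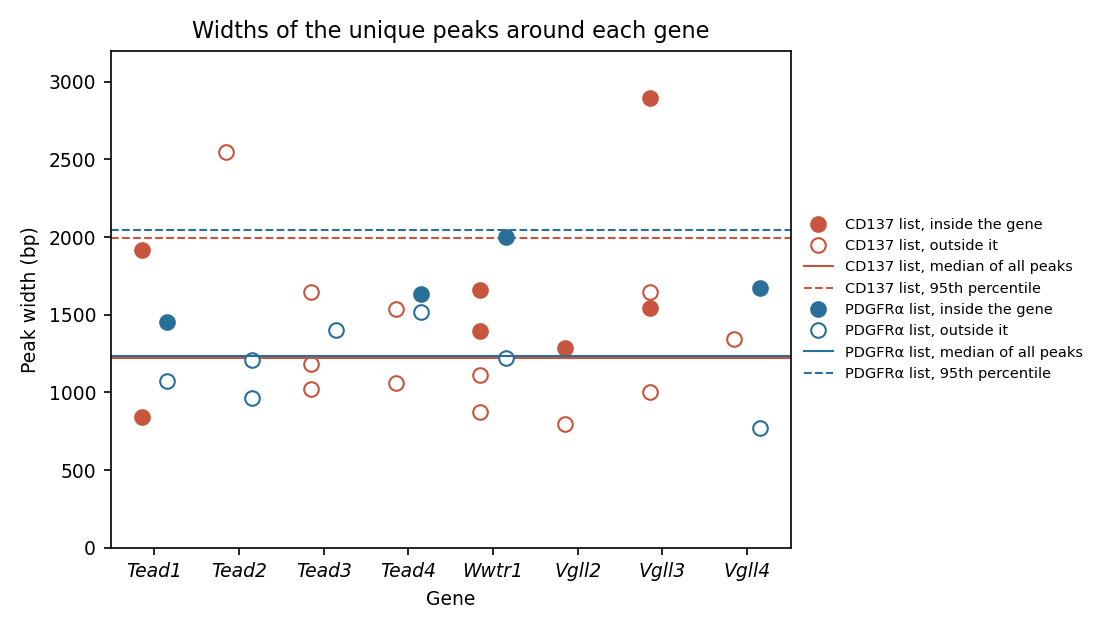
Width in bp (y axis) of each unique peak around the 8 genes that had any (x axis), filled inside the gene and open outside it, with the median (solid line) and the 95th percentile (dashed line) of each whole list. Filled points lie above the medians except at Tead1, where a CD137 peak is 841 bp wide.

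By the deposited class, 14 of the 30 peaks were in introns (46.7%), 5 in exons (16.7%), 5 in up5k, 1 in down5k and 5 were intergenic. The intergenic share of 16.7% (5.64 to 34.7%) can be read against the 32% among all 18544 peaks within 100 kb of a protein-coding gene, since the choice by position favours peaks near genes. That value lies inside the interval. The same 18544 peaks were 38.9% intron, 9.51% exon, 11.2% up5k and 8.51% down5k. Of the 11 internal peaks 8 were intronic, 2 exonic (both at Vgll3) and 1 up5k (at Vgll2). Among peaks inside any protein-coding gene, 64.6% were intronic, 15.9% exonic and 9.53% up5k.

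The promoter windows of the genes all held more CpG than the median window. RefSeq promoters were found for 7 of the 9 genes, in 10 windows of 300 bases, all but Tead1 and Tead4. The number of CpG ranged from 13 at Tead2 to 49 at Yap1, and the median of all 32817 windows was 7. Yap1 was at percentile 99.1, Vgll4 with 34 at 92.7, Vgll2 with 21 at 76.1, Vgll3 with 19 at 72.8 and Tead2, the lowest, at 62.9. The window inside a unique peak, that of Vgll2, was thus in the middle of the group. No methylation was measured in these files, so the CpG number says only how many sites could carry it.

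**Figure D4:**
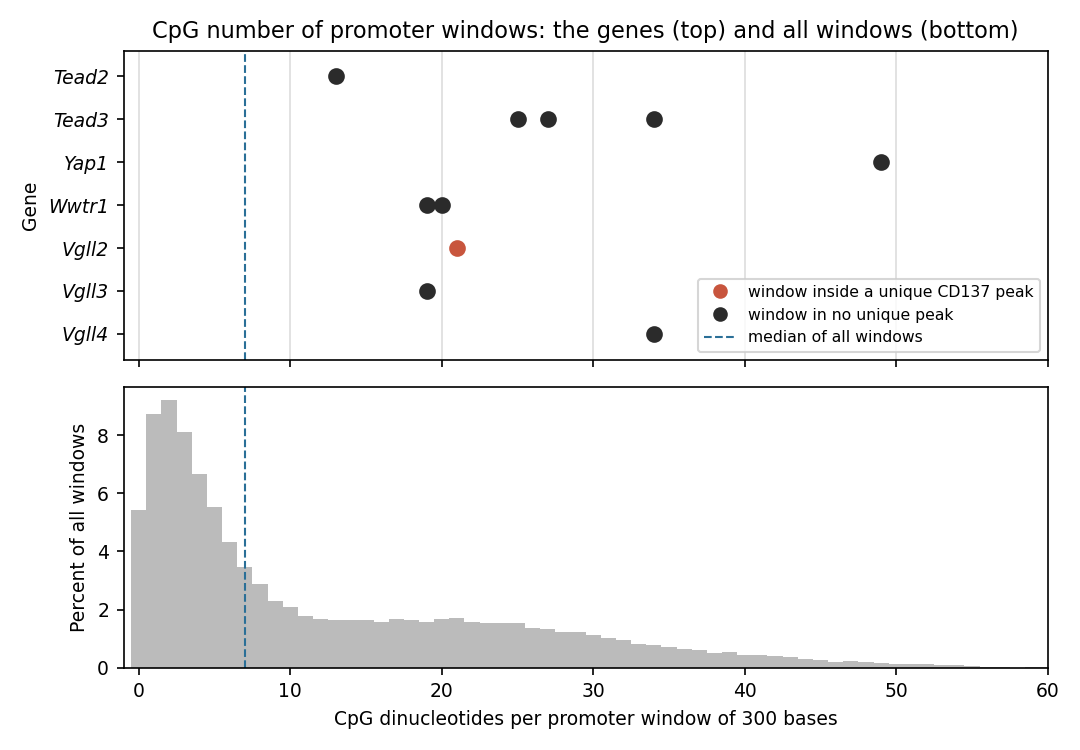
CpG dinucleotides (x axis) in each 300-base promoter window of 7 genes (top, 1 row per gene, Vgll2 in red because its window lies in a unique CD137 peak) and their distribution over all promoter windows (bottom, y axis in percent). All 10 points lie to the right of the overall median of 7.

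The core letters of the TEAD motif, GGAATG or its reverse complement CATTCC, stood in the promoter windows of 5 of the 7 genes: Tead3, Yap1, Wwtr1, Vgll3 and Vgll4. They were absent at Tead2 and Vgll2. Over all promoter windows 14.7% held these letters on either strand. The share was 16.6% when counted per gene and 9.99% among the 12432 windows with at least 13 CpG, the lowest number in the group. The matches fell at 8 positions, 4 of them at Tead3, which has 3 overlapping windows. A stretch of 30 bases around a match is shown for each gene, because the letters are those that the proteins of this family read. Sequences are from RefSeq, GRCm38.p6, in the direction of the gene, and capitals mark the letters. They lie at chr17:28350706-28350735 (minus strand, Tead3), chr9:8004720-8004749 (minus, Yap1), chr3:57576029-57576058 (minus, Wwtr1), chr16:65815114-65815143 (plus, Vgll3) and chr6:114969268-114969297 (minus, Vgll4).
Tead3: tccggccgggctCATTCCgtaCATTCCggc
Yap1: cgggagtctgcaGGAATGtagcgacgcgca
Wwtr1: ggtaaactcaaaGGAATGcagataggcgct
Vgll3: cccgcctccccaCATTCCggctaccctgcc
Vgll4: cgagtggggtggGGAATGctgagaaatgcc
At Tead3 a pair of matches in the same orientation lay 3 bases apart. The first letter of a match was 141 bases before the start at Yap1, 63 before it at Vgll3 and 82 before it at Vgll4. None of these windows lay in a unique peak, so the lists say nothing of a difference in their openness. A match is a stretch of letters, not a measured binding site.

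Of the other motifs searched on both strands, the EBF letters CCCNNGGG were found at Tead3, Yap1 and Vgll3, where 13.7% of all windows held them. That share counts windows, and no share per gene was computed for the EBF letters. At Yap1 there were 3 matches, and 2 of them overlapped each other. No match of another motif overlapped the TEAD letters. The letters for AP-1 (TGANTCA, 7.81% of all windows), the glucocorticoid receptor (its paired half-sites, 0.475%), C/EBP (TTGCNNAA, 10.8%) and RUNX (TGTGGT, 16.8%) were in none of the 10 windows. These windows had 61.3 to 75.3% GC, where the median of all windows was 52.7%. No share was computed among windows of like GC content, so whether base content bears on the presence or absence of these letters was not tested.

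Other genes of the pathway mostly had peaks of both lists within 100 kb, 12 of 20 upstream genes and 15 of 20 targets, beside the 43.4% of all genes. Of the 20 upstream Hippo genes, 17 had a CD137 peak within 100 kb (85%) and 14 a PDGFRα peak (70%), beside backgrounds of 66.8% and 56%. Many of these genes are long, and all genes of 50 to 250 kb had shares of 82.1% and 67.5%, close to those values. The share with both lists is not given for that length. The windows of the 20 upstream genes held 45 CD137 and 34 PDGFRα peaks (57%, 45.3 to 68.1%). Wwc1, an upstream scaffold also called KIBRA, had the most, 8 and 3. Frmd6, a further upstream regulator, had 6 and 0, whereas Amotl2, an angiomotin that binds YAP, had 1 and 5 and the phosphatase gene Ptpn14 had 2 and 4. These 4 were named because they had the most peaks of the 20. Among all 21887 protein-coding genes, 8 had 8 and 3, 41 had 6 and 0, 32 had 1 and 5 and 112 had 2 and 4. Only the kinase gene Stk4 had no peak (5% of the 20), where 20.6% of all genes had none.

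Of the 20 common targets of YAP and TEAD, 18 had a CD137 peak (90%) and 17 a PDGFRα peak (85%), beside 66.8% and 56% of all genes. Genes of 50 to 250 kb, a length that some of the targets share, had 82.1% and 67.5%. The windows of the targets held 48 CD137 and 36 PDGFRα peaks (57.1%, 45.9 to 67.9%). Amotl2 and Ptpn14 are in both gene lists, as is Lats2, a Hippo kinase gene with 2 and 3. Crim1 had 2 CD137 and 4 PDGFRα peaks, and Dock5 and the tissue factor gene F3 had 3 and 3 each. Targets that leaned the other way included Gadd45a and Nuak2 with 5 and 0 each, Myof with 4 and 1 and Foxf2 with 3 and 0. Of all 21887 protein-coding genes, 135 had 5 and 0, 329 had 4 and 1 and 711 had 3 and 0. The CD137 list is also the longer one, with 14483 against 8002 peaks. The matricellular genes Ccn1 and Ccn2, often used as readouts of YAP activity, had 0 and 1 and 2 and 1, where the median protein-coding gene had 2 peaks of either list. Both intervals include the 64.4% of the whole lists.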

How the data were processed

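Per the file headers, each deposited list gives a chromosome, start, end, Ensembl gene ID and class per peak. The values are positions in bp, and the authors gave no other measure. The submitters' processing notes list CASAVA 1.8 and the build mm10 with no role for either. What aligned the reads, what called peaks at which threshold and what made a peak unique is not given in the sources used, nor whether starts count from 0 or 1. Coordinates are printed as deposited.

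Gene spans and promoter sequences came from RefSeq tables of GRCm38.p6. Peak centres were counted within 100 kb of each span, and backgrounds are all 21887 protein-coding genes of chromosomes 1 to 19, X and Y. The genes and pathway lists were chosen with earlier results of these data known. All 9 genes are named, with up to 4 genes per pathway list by number of peaks, and Stk4, Ccn1, Ccn2, Lats2, Gadd45a, Nuak2, Myof and Foxf2 after their values were seen. Motifs were counted in promoters and not in peaks, for want of a genome sequence. The details of 1 peak in the Tead2 window are not reported here, and it is included in all counts. Counting was tested on simulated peaks. The work used Python 3.11.15 with scipy 1.17.1, pandas 2.3.3, numpy 2.4.6 and, for plots, matplotlib 3.10.9.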

Additional observations from a re-analysis of the deposited data

How the results depend on the processing

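The CD137 share of 63.3% ranged from 57.7 to 66.7% when each gene was left out in turn, and from 52.2 to 66.7% over all 16 settings. The lowest value came from lists of equal length (12 CD137 and 11 PDGFRα peaks), where equal shares are the reference. These lists were made by keeping only the widest CD137 peaks beside all PDGFRα peaks. The choice by width thus touched the CD137 list alone. Of the 9 genes, 8 had a CD137 peak within 100 kb, but 4 within 10 kb and 4 when only peaks nearest to the member counted. The number with a PDGFRα peak was 6, and 4 under both settings. The share of all protein-coding genes was not computed under those settings, and a stricter rule can only lower such counts. The median width of the PDGFRα peaks was 1403 bp, and 1652 bp for those inside a gene. The alternatives for the TEAD letters were chosen after seeing the data. The count of motifs in the central 300 bp of peaks was not run, for want of a genome sequence. No paired analysis was possible because each group has a single library, and none could be left out. Depth is unknown.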
